A study of Mus musculus and Homo sapiens with 12 samples.

Results

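Charging and read abundance were examined for tRNA-Asn-GTT, tRNA-Asp-GTC and tRNA-His-GTG, the tRNAs for asparagine, aspartate and histidine, in a genome-wide tRNA-charging assay. These isoacceptors were chosen by name, because the first base of their anticodon is a guanine that can be exchanged for queuosine, and the rule uses no measured value, although it was set with earlier results of these data known. They covered 12 of the 224 mouse tRNA genes and 21 of the 260 human tRNA genes in the files, or 33 of 484 in all. In mouse these were 5 genes of tRNA-Asn-GTT, 4 of tRNA-Asp-GTC and 3 of tRNA-His-GTG, and in human 17, 3 and 1.

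The assay was carried out in mouse embryonic fibroblasts (MEF) and in NTERT cells, an immortalized line of human keratinocytes. MEF cells were left untreated (NT) or given 100 nM halofuginone (HF), which inhibits prolyl-tRNA synthetase, for 6 h according to the sample labels, while the study's legends give a shorter time, and both groups were kept for that time in medium with dialyzed serum. NTERT cells were left untreated or exposed to 400 J/m2 of UV-B and allowed to recover for 3 h. Each of the 4 groups had 3 libraries. The study describes its replicates as biological, but neither it nor the labels say whether the libraries came from separate cultures, so that p-values measure the spread between these libraries only.

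Queuosine is made by exchanging the guanine in the anticodon for queuine, a base that animals take from food and from gut bacteria, through the enzyme tRNA-guanine transglycosylase. It is found in the tRNAs for asparagine, aspartate, histidine and tyrosine, which read codons ending in U or C. Asparaginyl-, aspartyl- and histidyl-tRNA synthetases attach the amino acids, and the kinase GCN2, which senses uncharged tRNA, carries a domain related to histidyl-tRNA synthetase. Queuosine itself is not read by the assay and was not analysed here.

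In the assay, periodate attacks the 3′ terminal adenosine only where no amino acid protects it, and this nucleotide is then removed at high pH, so that charged tRNAs are read with a CCA end and uncharged ones with a CC end. Percent charged is the number of CCA reads over the reads with either end. Reads on tRNA genes numbered 617693 to 6286863 per MEF library and 253693 to 1992671 per NTERT library. They were 3.43% to 27.8% of the reads of a MEF library and 1.33% to 4.66% of those of an NTERT library. The percent charged of a single isoacceptor rested on 1150 to 363654 reads with an end, and its 95% Wilson interval, which covers counting error only, was at most 5.34 percentage points wide.

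According to RefSeq (GRCm38.p6), the mouse genome holds 13 loci for tRNA-Asn-GTT on 7 chromosomes, of which 6 lie on chromosome 3 between 96322074 and 96497854. For tRNA-Asp-GTC there are 16 loci on 6 chromosomes, with 5 of them on chromosome 1 between 171037029 and 171102442. For tRNA-His-GTG there are 10 loci on 3 chromosomes, with 6 on chromosome 3 between 96410069 and 96500437, inside the stretch that also holds tRNA-Asn-GTT loci. The annotated genes are 74 bp long for asparagine and 72 bp for the others. The symbols of this annotation could not be matched one by one to the gene names in the files, and the files list fewer genes than there are loci. In the study's methods duplicate sequences were removed from the human tRNA reference, so a listed gene can stand for several loci of the same sequence. Whether this was also done for mouse is not stated there.

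In untreated MEF cells, tRNA-Asn-GTT was charged at 76.5%, 66.7% and 86.6% in libraries 1, 2 and 3, with a mean of 76.6% ± 9.97 (SD, n = 3). The percent charged of tRNA-Asp-GTC was 34.1%, 25.4% and 72.9%, with a mean of 44.2% ± 25.3 (SD, n = 3). tRNA-His-GTG was charged at 60.1%, 49.0% and 63.7%, with a mean of 57.6% ± 7.65 (SD, n = 3). All 3 were lowest in library 2 and highest in library 3, and tRNA-Asp-GTC differed most between the libraries. The median over the isoacceptors with enough reads followed the same order, at 71.9%, 55.7% and 80.7%.

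**Figure D1:**
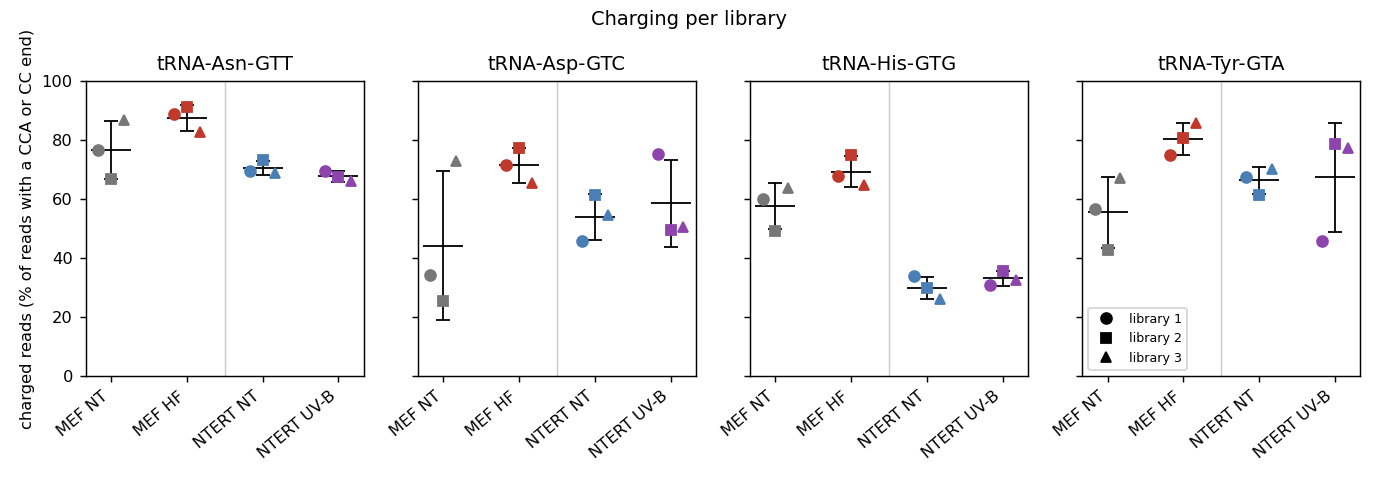
Percent charged (y axis, CCA reads as a percentage of reads with a CCA or CC end) of tRNA-Asn-GTT, tRNA-Asp-GTC, tRNA-His-GTG and tRNA-Tyr-GTA in each library of the 4 groups. Points are libraries, and the lines with whiskers give the mean ± SD of 3 libraries. The NT values of tRNA-Asp-GTC in MEF cells run from 25.4% to 72.9%, while tRNA-His-GTG is at most 35.7% in all NTERT libraries.

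On the scale used for the tests, the log2 charging ratio (CCA reads over CC reads), the SD of tRNA-Asp-GTC over the NT libraries was 1.58, which was the widest of the 48 isoacceptors tested, whose median SD was 0.84. tRNA-Asn-GTT lay in the middle, with an SD of 0.85 and the 23rd place from the widest. tRNA-His-GTG was among the narrowest, with an SD of 0.45 and the 44th place. In HF-treated cells tRNA-Asp-GTC had an SD of 0.42 and the 40th place, so its wide spread was seen in the untreated libraries. These spreads are descriptions over 3 libraries each, without a test.

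The 3 tRNAs were also ranked by charging among the isoacceptors of each library. tRNA-Asp-GTC was the least charged of the 48 isoacceptors in NT libraries 1 and 2 and the 34th from the top in library 3, and it was the 39th or 40th in the HF libraries. tRNA-His-GTG held places 31 to 42 in the NT and 41 to 43 in the HF libraries. tRNA-Asn-GTT held places 10 to 14 in the NT and 11 to 26 in the HF libraries. Relative to the median isoacceptor of the same library, tRNA-Asp-GTC and tRNA-His-GTG were below it in 6 of 6 MEF libraries, and tRNA-Asn-GTT was above it in all but HF library 1.

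HF was used to block the charging of tRNAPro, and it was asked whether the charging of these other tRNAs differed as well. In HF-treated cells, tRNA-Asn-GTT was charged at 88.9%, 91.1% and 82.7%, with a mean of 87.6% ± 4.34 (SD, n = 3). tRNA-Asp-GTC was charged at 71.6%, 77.1% and 65.5%, with a mean of 71.4% ± 5.83 (SD, n = 3). The values of tRNA-His-GTG were 67.8%, 75.0% and 64.8%, with a mean of 69.2% ± 5.25 (SD, n = 3). The HF libraries were all above the NT libraries for tRNA-His-GTG, whereas NT library 3 overlapped with the HF libraries for tRNA-Asn-GTT and tRNA-Asp-GTC.

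None of the 3 tRNAs passed the test for a change in charging. The log2 charging ratio of tRNA-Asp-GTC was -0.36 in NT and 1.34 in HF-treated cells, a difference of 1.69 (standard error 0.73, 95% interval 0.26 to 3.13, adjusted p = 0.0821 from limma). For tRNA-Asn-GTT the difference was 1.07 (95% interval -0.36 to 2.499, adjusted p = 0.196 from limma), and for tRNA-His-GTG it was 0.73 (95% interval -0.70 to 2.16, adjusted p = 0.336 from limma). These intervals rest on 1 spread that limma gave to all isoacceptors of MEF cells. They therefore do not measure the spread of tRNA-Asp-GTC itself, whose SD over the NT libraries was 1.58. Across all isoacceptors 9 of 48 (18.8%) passed an adjusted p of 0.05, and the groups did not overlap for 14 of 48 (29.2%).

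The differences of the 3 tRNAs stood among those of the other isoacceptors, of which 45 of 48 were higher with HF, with a median of 1.21 over all 48. tRNA-Asp-GTC had the 9th largest rise in this order, tRNA-Asn-GTT the 32nd and tRNA-His-GTG the 42nd. With the library median subtracted, the difference of tRNA-Asp-GTC was 0.34, that of tRNA-Asn-GTT -0.29 and that of tRNA-His-GTG -0.63, and none passed the test (adjusted p = 0.791, 0.743 and 0.523 from limma). The HF libraries also held more of their reads on tRNA genes, at 19.1% to 27.8% against 3.43% to 9.52% in the NT libraries, and the part of this in the charging values was not tested. Without NT library 3 the difference of tRNA-Asp-GTC was 2.59 (adjusted p = 0.00739 from limma), and without HF library 3 it was 1.90 (adjusted p = 0.0394 from limma). Among all 48 isoacceptors, 0 to 22 passed with 1 library left out, depending on the library. The tRNAs for proline are the targets of the drug, but as the charged reads in the files were recognised by their fall at these tRNAs, this is no independent check of the drug. The charging ratio of Pro-AGG fell by 2.52, that of Pro-CGG fell by 2.33 and that of Pro-TGG fell by 2.25 (adjusted p = 0.0171, 0.0248 and 0.0268 from limma), without an overlap between the groups.

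**Figure D2:**
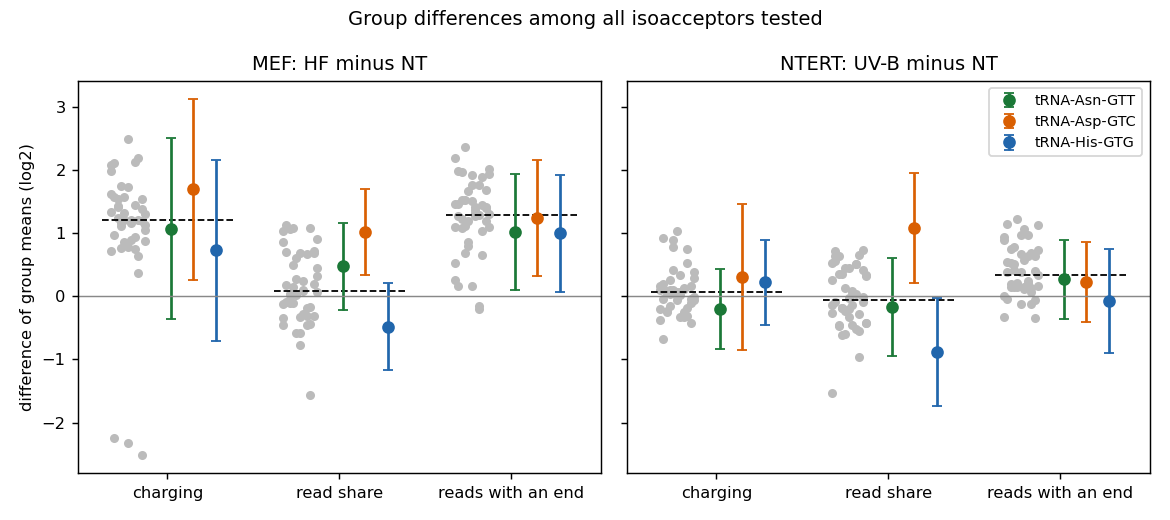
Difference of group means on the log2 scale (y axis) for charging, read share and the ratio of reads with an end to other reads, in MEF (HF minus NT) and NTERT cells (UV-B minus NT). Grey points are the other isoacceptors, dashed lines their median together with the 3 tRNAs, and coloured points with bars the 3 tRNAs with their 95% intervals from limma. In MEF cells the bars for charging and for read share each rest on 1 spread common to all isoacceptors. tRNA-Asp-GTC has a read share higher by 1.02 in MEF and by 1.08 in NTERT cells, whereas tRNA-His-GTG lies at -0.48 and -0.89.

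tRNA-Tyr-GTA, the remaining tRNA that can carry queuosine, was charged at 56.6%, 42.9% and 67.0% in NT and at 74.9%, 80.6% and 85.7% in HF-treated MEF cells, without an overlap between the groups. Its difference on the log2 scale was 1.73 (adjusted p = 0.0776 from limma), and it rested on as few as 147 reads with an end in a library. The tRNAs for lysine, whose synthetase is of the same subclass as those for aspartate and asparagine, differed by 1.10 for Lys-CTT and 0.88 for Lys-TTT, and neither passed the test (adjusted p = 0.183 and 0.271 from limma). Over the 6 MEF libraries, the mean absolute difference in percent charged between tRNA-Asp-GTC and tRNA-Tyr-GTA was 12.1 percentage points, and between tRNA-His-GTG and tRNA-Tyr-GTA it was 7.78.

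In untreated NTERT cells, tRNA-Asn-GTT was charged at 69.6%, 73.3% and 68.8%, with a mean of 70.6% ± 2.41 (SD, n = 3). tRNA-Asp-GTC was charged at 45.9%, 61.3% and 54.5%, with a mean of 53.9% ± 7.70 (SD, n = 3). The values of tRNA-His-GTG were 33.8%, 29.7% and 26.1%, with a mean of 29.9% ± 3.84 (SD, n = 3). The order was the same in each untreated library, with asparagine highest and histidine lowest. tRNA-Asn-GTT held places 5 to 9 of the 47 isoacceptors tested, tRNA-Asp-GTC 14 to 27 and tRNA-His-GTG 37 to 41.

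The same comparison was made for exposure to UV-B, which damages nucleic acids and stresses the cells. After UV-B, tRNA-Asn-GTT was charged at 69.6%, 67.4% and 66.1%, with a mean of 67.7% ± 1.79 (SD, n = 3). tRNA-Asp-GTC was charged at 75.4%, 49.4% and 50.6%, with a mean of 58.5% ± 14.6 (SD, n = 3). For tRNA-His-GTG the values were 31.0%, 35.7% and 32.5%, with a mean of 33.1% ± 2.44 (SD, n = 3). The UV-B and NT libraries overlapped for each of the 3 tRNAs, and UV-B library 1 was the highest of the UV-B libraries for tRNA-Asn-GTT and tRNA-Asp-GTC and the lowest for tRNA-His-GTG.

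None of the 3 tRNAs differed in charging by more than the spread between libraries. The difference on the log2 scale was -0.19 for tRNA-Asn-GTT (95% interval -0.83 to 0.44), 0.31 for tRNA-Asp-GTC (95% interval -0.85 to 1.47) and 0.22 for tRNA-His-GTG (95% interval -0.45 to 0.89), each with an adjusted p of 0.986 from limma. In limma 0 of 47 isoacceptors (0%) had an adjusted p below 0.05 and 0 an unadjusted p below 0.05, and the groups did not overlap for 2 of 47 (4.26%). Without UV-B library 1 the difference of tRNA-Asp-GTC was -0.23. Charging in that library was above both other UV-B libraries for 35 of 47 isoacceptors and below both for 9. It held 312283 reads on tRNA genes, and its tRNA-Tyr-GTA was charged at 45.9%, on 85 reads with an end, against 78.6% and 77.4% in the other UV-B libraries, the opposite of the order for tRNA-Asp-GTC. The tRNAs for lysine differed by 0.14 for Lys-CTT and 0.03 for Lys-TTT, with the same adjusted p of 0.986 from limma.

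The spread of tRNA-Asp-GTC was again among the wider ones, with an SD on the log2 scale of 0.45 in untreated NTERT cells, the 3rd place of 47, and of 0.93 after UV-B, the 9th place. tRNA-Asn-GTT was among the narrowest after UV-B with an SD of 0.12 and the 45th place, as was tRNA-His-GTG with 0.16 and the 44th place.

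Because the 3 tRNAs were read in the same libraries, they could be compared with each other free of shifts that a whole library shares. A bias in reading the ends of 1 of these tRNAs in every library would not cancel and was not tested. In MEF cells tRNA-Asn-GTT was charged more than tRNA-Asp-GTC in 6 of 6 libraries, with a mean difference in the log2 charging ratio of 1.84 ± 0.61 (SD, n = 6, exact sign-flip permutation test, p = 0.0312, adjusted p = 0.0469). It was also charged more than tRNA-His-GTG in 6 of 6 libraries, with a mean difference of 1.52 ± 0.39 (SD, n = 6, exact sign-flip permutation test, p = 0.0312, adjusted p = 0.0469). The first of these differences was 2.16 in NT and 1.53 in HF-treated cells, and the second was 1.35 and 1.69. Between tRNA-Asp-GTC and tRNA-His-GTG the difference was -0.32 ± 0.95 (SD, n = 6, exact sign-flip permutation test, p = 0.5). tRNA-Asp-GTC was below tRNA-His-GTG in NT libraries 1 and 2 and above it in the other 4 MEF libraries. In percentage points tRNA-Asn-GTT stood 13.7 to 42.4 above tRNA-Asp-GTC and 16.1 to 22.9 above tRNA-His-GTG.

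In NTERT cells tRNA-Asn-GTT exceeded tRNA-His-GTG by 2.29 ± 0.33 (SD) and tRNA-Asp-GTC exceeded tRNA-His-GTG by 1.51 ± 0.78 (SD), each in 6 of 6 libraries (exact sign-flip permutation test, p = 0.0312, adjusted p = 0.0469). tRNA-Asn-GTT exceeded tRNA-Asp-GTC by 0.78 ± 0.63 (SD) in 5 of 6 libraries, the exception being UV-B library 1, and this difference did not pass the threshold (exact sign-flip permutation test, p = 0.0625, adjusted p = 0.075). The difference between tRNA-Asn-GTT and tRNA-His-GTG was 2.501 on average in NT and 2.09 in UV-B libraries. The tests were two-sided, the adjustment was over the 6 tests, and 0.0312 is the smallest p that 6 libraries can give.

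**Figure D3:**
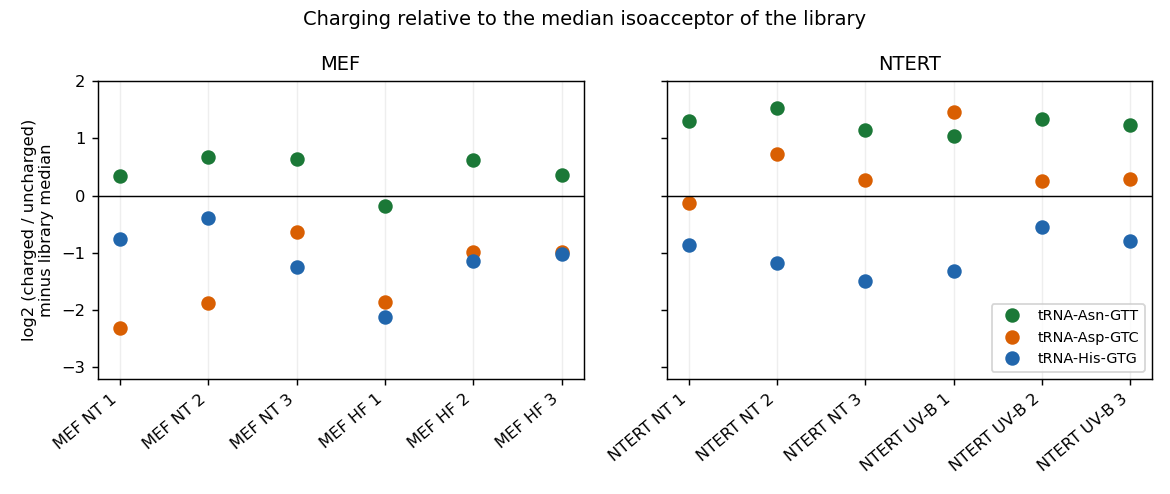
Log2 charging ratio (CCA over CC reads) minus the median isoacceptor of the library (y axis) for tRNA-Asn-GTT, tRNA-Asp-GTC and tRNA-His-GTG in each of the 6 MEF and 6 NTERT libraries (x axis). tRNA-His-GTG is below 0 in all 12 libraries, and tRNA-Asp-GTC is below 0 in 6 of 6 MEF libraries but in 1 of 6 NTERT libraries.

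Between the cell types, tRNA-His-GTG was charged at 57.6% ± 7.65 in untreated MEF and 29.9% ± 3.84 in untreated NTERT cells (SD, n = 3 each), whereas tRNA-Asn-GTT was at 76.6% ± 9.97 and 70.6% ± 2.41 and tRNA-Asp-GTC at 44.2% ± 25.3 and 53.9% ± 7.70. Species, cell type and reference differ together here, as may the batch of the libraries, and cannot be told apart, so no test was made. Of all reads on tRNA genes, 86.9% to 93.8% carried an end in untreated MEF and 47.2% to 57.8% in untreated NTERT libraries. The part of this in the charging values was not tested. The median over all isoacceptors was also lower in untreated NTERT libraries, at 48.0% to 49.9%. Relative to that median, tRNA-Asn-GTT was higher by 1.03 to 1.53 on the log2 scale in the NTERT libraries and lay between -0.19 and 0.67 in the MEF libraries. On that scale tRNA-His-GTG lay at -1.11 on average in the MEF and -1.03 in the NTERT libraries, whereas tRNA-Asp-GTC lay at -1.44 and 0.48.

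The isoacceptors most like the 3 tRNAs were found by the mean absolute difference in percent charged over the 6 libraries of a cell type. In MEF cells tRNA-Asn-GTT was nearest to Trp-CCA (1.88 percentage points) and Arg-TCG (1.99), against a median of 7.57 over 45 isoacceptors. tRNA-Asp-GTC was farther from its nearest isoacceptors, Leu-AAG (9.35) and Leu-TAG (10.3), with a median of 20.9, and tRNA-His-GTG was nearest to Ser-GCT (4.06) and Ser-TGA (4.74). In NTERT cells the nearest were Lys-CTT (3.61) and Arg-CCT (3.87) for tRNA-Asn-GTT, Arg-TCG (5.79) and Arg-CCG (7.79) for tRNA-Asp-GTC, and Cys-GCA (4.05) and Ser-TGA (4.50) for tRNA-His-GTG. Ser-TGA was the only isoacceptor among the nearest 2 of the same tRNA in both cell types. As the 3 tRNAs themselves were not candidates, tRNA-Tyr-GTA was the only candidate of the queuosine type, and it was not among the nearest 2.

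Among the reads on tRNA genes, tRNA-Asp-GTC took the largest share of the 3 tRNAs in all 12 libraries. In untreated MEF cells its share was 2.06%, 2.05% and 1.84% of the reads on tRNA genes, and in HF-treated cells 2.82%, 2.69% and 6.19%. All HF libraries were above all NT libraries, with HF library 3 far above the others. After scaling of the libraries, the read share of tRNA-Asp-GTC rose by 1.02 on the log2 scale (standard error 0.35, 95% interval 0.33 to 1.71, adjusted p = 0.0265 from limma), the 6th largest rise of 48 isoacceptors. This standard error also came from 1 spread common to all isoacceptors. Of the 48 isoacceptors 7 (14.6%) passed the test, and the groups did not overlap for 13 (27.1%).

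The rise of tRNA-Asp-GTC depended on the setting. Without HF library 3 it was 0.52 (adjusted p = 0.356 from limma), and it also lost the call, at differences of 0.94 to 1.07, without any of the NT libraries or without HF library 1, while it was 1.19 without HF library 2 (adjusted p = 0.0134 from limma). Of the isoacceptors tested, 1 to 9 passed with 1 library left out, depending on the library. With library totals in place of TMM scaling it was 0.87 (adjusted p = 0.107 from limma), and with only the reads that carry an end 0.95 (adjusted p = 0.109 from limma).

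tRNA-Asn-GTT took 0.644%, 0.729% and 0.575% of the reads in untreated and 0.604%, 0.916% and 0.958% in HF-treated MEF cells. Its scaled read share was higher by 0.48 with HF (adjusted p = 0.395 from limma), and the groups did not overlap after scaling, although they did as plain percentages. In untreated MEF cells the SD of its scaled read share was 0.039 on the log2 scale, which was the narrowest of the 48 isoacceptors. tRNA-His-GTG took 0.619%, 0.907% and 0.541% in untreated and 0.392%, 0.626% and 0.331% in HF-treated MEF cells, with overlapping groups. Its scaled read share was lower by 0.48 with HF (log2 difference -0.48, adjusted p = 0.395 from limma).

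In NTERT cells the share of tRNA-Asp-GTC was 3.33%, 2.82% and 3.73% without and 5.91%, 5.34% and 11.5% with UV-B, again without an overlap and with library 3 far above the others. The scaled difference was 1.08 (standard error 0.41, 95% interval 0.21 to 1.95), the largest of the 48 isoacceptors, but it did not pass the test (unadjusted p = 0.0183, adjusted p = 0.439 from limma). tRNA-His-GTG took 1.62%, 1.60% and 0.854% without and 0.513%, 1.24% and 0.603% with UV-B, and its scaled difference of -0.89 ranked 46th of 48 (adjusted p = 0.513 from limma). For tRNA-Asn-GTT the shares were 1.04%, 1.39% and 0.731% without and 0.800%, 1.14% and 0.897% with UV-B, with a scaled difference of -0.17 (adjusted p = 0.829 from limma).

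For the read share in NTERT cells, limma called 0 of 48 isoacceptors (0%), 4 had an unadjusted p below 0.05, and the groups did not overlap for 2 (4.17%), of which tRNA-Asp-GTC was the higher one. Without UV-B library 3 the difference of tRNA-Asp-GTC was 0.63. tRNA-Tyr-GTA was less abundant than any of the 3 tRNAs, with 0.081% to 0.193% of the reads in an NTERT library and 0.015% to 0.051% in a MEF library. Together the 3 tRNAs took 2.96% to 3.69% of the reads on tRNA genes in untreated and 3.82% to 7.48% in HF-treated MEF cells, and 5.32% to 5.98% in untreated and 7.23% to 13.04% in UV-B-exposed NTERT cells. HF library 3 and UV-B library 3 had the most reads on tRNA genes in their groups, at 6286863 and 1583619. So did library 3 of the untreated MEF and NTERT cells, at 3013132 and 1992671, where tRNA-Asp-GTC took 1.84% and 3.73%. The part of the number of reads in the share of tRNA-Asp-GTC was not tested.

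**Figure D4:**
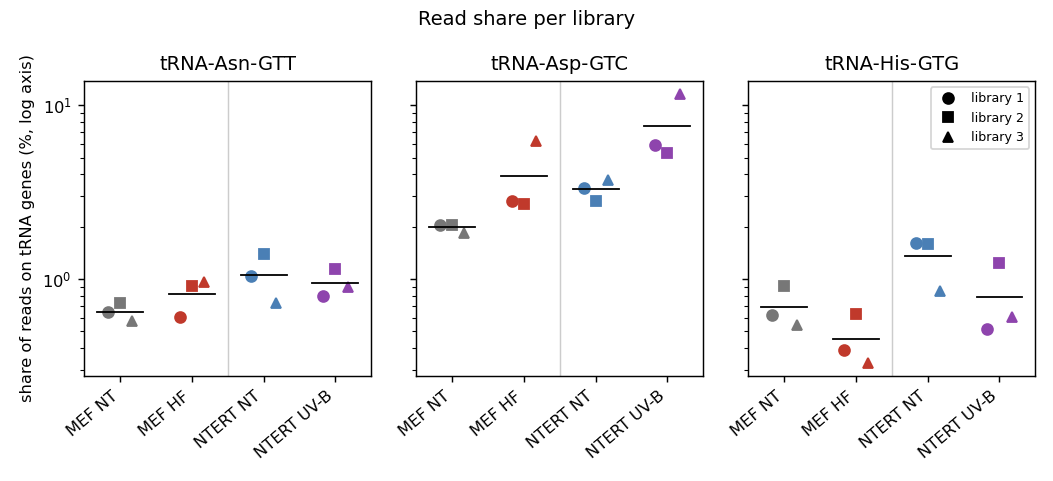
Share of the reads on tRNA genes (y axis, percent on a log axis) taken by tRNA-Asn-GTT, tRNA-Asp-GTC and tRNA-His-GTG in each library of the 4 groups. Points are libraries and lines the means of 3 libraries. The share of tRNA-Asp-GTC is 1.84% to 2.06% in MEF NT and 2.69% to 6.19% in MEF HF libraries, and 2.82% to 3.73% in NTERT NT and 5.34% to 11.5% in NTERT UV-B libraries.

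The percent charged uses only the reads with a CCA or CC end, so the share of such reads was examined for each tRNA. In MEF cells 89.7% to 94.6% of the reads of tRNA-Asn-GTT carried an end without HF and 95.8% to 96.5% with HF. For tRNA-Asp-GTC it was 83.8% to 87.9% without and 93.1% to 93.6% with HF. tRNA-His-GTG had 86.5% to 94.5% without and 94.4% to 96.6% with HF, so that its groups overlapped.

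The log2 ratio of reads with an end to other reads rose with HF by 1.01 for tRNA-Asn-GTT, by 1.24 for tRNA-Asp-GTC and by 1.00 for tRNA-His-GTG (adjusted p = 0.0405, 0.0144 and 0.0438 from limma). This was so for most tRNAs, since 38 of 48 isoacceptors (79.2%) passed this test and the groups did not overlap for 35 (72.9%). The median rise was 1.29, and relative to the library median the differences were -0.063, 0.16 and -0.077. Leaving out any library but NT library 3 lost the call of tRNA-Asn-GTT, leaving out any but NT library 1 lost that of tRNA-His-GTG, with 0.61 without NT library 3, and leaving out HF library 2 lost that of tRNA-Asp-GTC (adjusted p = 0.0531 from limma).

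In NTERT cells fewer reads carried an end. In untreated cells these were 40.4% to 50.3% for tRNA-Asn-GTT, 41.1% to 47.9% for tRNA-Asp-GTC and 71.4% to 82.7% for tRNA-His-GTG. After UV-B the ranges were 47.7% to 51.3%, 45.1% to 53.4% and 71.7% to 80.8%. tRNA-His-GTG thus stood above both others in all NTERT libraries, and it held places 6 to 9 of 47 isoacceptors in the untreated ones. None of the 3 tRNAs passed the test for UV-B, with differences of 0.27, 0.22 and -0.076 (adjusted p = 0.741, 0.753 and 0.911 from limma), as 0 of 47 isoacceptors (0%) did in limma, where 3 had an unadjusted p below 0.05 and the groups did not overlap for 5 (10.6%).

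Except for tRNA-His-GTG in NTERT cells, with 1 listed gene, the reads of each isoacceptor came from several listed genes. These can share reads where they are nearly identical, so that values of single genes are uncertain. In MEF cells 8 of the 12 genes had a mean of at least 50 reads with an end. Asn-GTT-3-1 held 97.2% to 98.1% of the reads of tRNA-Asn-GTT, Asp-GTC-1-1 held 81.1% to 85.3% of those of tRNA-Asp-GTC, and His-GTG-2-1 held 85.8% to 92.3% of those of tRNA-His-GTG. The values of these isoacceptors are therefore largely those of 1 listed gene each, which may stand for several loci of the same sequence. The other 4 genes had few reads over the 6 libraries, with 2 in all for Asn-GTT-4-1 and Asn-GTT-5-1 together, 16 for Asp-GTC-3-1 and 66 for His-GTG-1-1.

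The wide spread of tRNA-Asp-GTC between the untreated MEF libraries was seen in both of its main genes. Asp-GTC-1-1 was charged at 33.9%, 26.0% and 73.0% without and 71.5%, 77.1% and 65.3% with HF. Asp-GTC-2-1 was charged at 35.0%, 22.4% and 72.4% without and 72.4%, 77.3% and 66.4% with HF. These genes differed from each other by -1.19 to 3.63 percentage points over the 6 libraries. Asp-GTC-4-1 was charged at 57.6%, 27.3% and 66.7% without and 61.0%, 72.1% and 69.9% with HF, and only 17.9% to 53.5% of its reads carried an end.

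Among the genes of tRNA-Asn-GTT, Asn-GTT-3-1 was charged at 76.6%, 66.7% and 86.7% without and 89.0%, 91.0% and 82.7% with HF. Asn-GTT-1-1 was charged at 75.3%, 46.7% and 72.1% without and 87.3%, 92.9% and 76.5% with HF, and Asn-GTT-2-1 at 73.5%, 81.6% and 92.0% without and 81.5%, 90.9% and 86.2% with HF. The groups did not overlap for Asn-GTT-1-1, as for 43 of 139 mouse genes (30.9%), whereas Asn-GTT-2-1 was highest in NT library 3. His-GTG-2-1 was charged at 59.1%, 48.8% and 63.2% without and 67.0%, 74.6% and 64.2% with HF, and His-GTG-3-1 at 67.2%, 50.8% and 68.8% without and 74.4%, 77.2% and 70.8% with HF, both without an overlap. His-GTG-3-1 was charged more than His-GTG-2-1 in 6 of 6 libraries, the difference of His-GTG-2-1 minus His-GTG-3-1 being -8.16 to -1.96 percentage points.

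None of the 8 genes passed the test for HF, whereas 20 of 139 mouse genes (14.4%) did. Asp-GTC-2-1 differed by 1.81, Asn-GTT-1-1 by 1.79 and Asp-GTC-1-1 by 1.67 (adjusted p = 0.0807, 0.0852 and 0.106 from limma). Asn-GTT-3-1 and Asp-GTC-4-1 differed by 1.07 and 1.05, His-GTG-3-1 and His-GTG-2-1 by 0.78 and 0.73, and Asn-GTT-2-1 by 0.34. Without NT library 3 the differences of Asn-GTT-1-1, Asp-GTC-1-1 and Asp-GTC-2-1 passed, at 2.01, 2.57 and 2.73 (adjusted p = 0.0347, 0.0104 and 0.00667 from limma), and without HF library 3 those of Asn-GTT-1-1 and Asp-GTC-2-1 passed, at 2.29 and 2.01 (adjusted p = 0.0233 and 0.0452 from limma). Among all 139 mouse genes, 0 to 64 passed with 1 library left out, depending on the library.

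**Figure D5:**
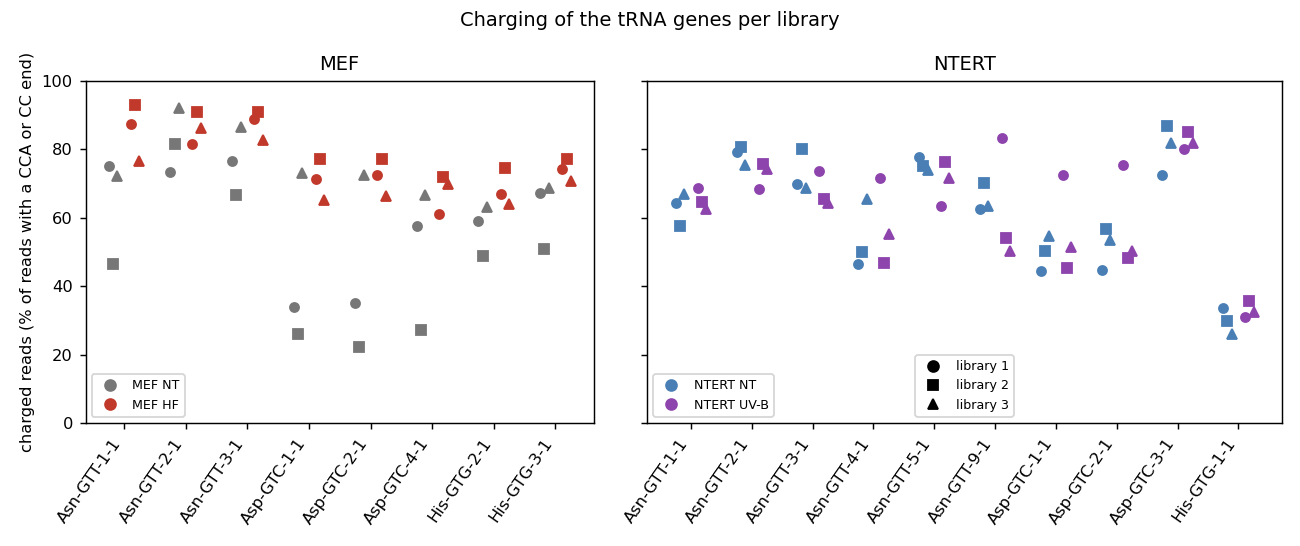
Percent charged (y axis) of the 8 mouse and 10 human genes of tRNA-Asn-GTT, tRNA-Asp-GTC and tRNA-His-GTG with a mean of at least 50 reads with an end, with 1 point per library. Asp-GTC-3-1 lies at 72.5% to 86.8% in NTERT cells, above Asp-GTC-1-1 and Asp-GTC-2-1 in all 6 libraries.

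In NTERT cells 10 of the 21 listed genes had a mean of at least 50 reads with an end. These were 6 of tRNA-Asn-GTT, 3 of tRNA-Asp-GTC and the single listed gene of tRNA-His-GTG. Asp-GTC-2-1 held 81.2% to 94.95% of the reads of its isoacceptor. tRNA-Asn-GTT was divided more evenly, with 33.6% to 53.7% of its reads on Asn-GTT-3-1, 25.3% to 27.9% on Asn-GTT-2-1 and 6.57% to 10.1% on Asn-GTT-5-1. The share of Asn-GTT-3-1 was 42.3%, 33.6% and 42.3% in the untreated and 42.8%, 44.3% and 53.7% in the UV-B libraries, which was not tested.

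Asp-GTC-3-1 stood apart from the other genes of tRNA-Asp-GTC. It was charged at 72.5%, 86.8% and 81.9% without and 80.1%, 85.2% and 81.8% with UV-B, while Asp-GTC-2-1 was charged at 44.8%, 56.9% and 53.5% without and 75.3%, 48.4% and 50.4% with UV-B. Asp-GTC-1-1 was charged at 44.6%, 50.4% and 54.8% without and 72.7%, 45.2% and 51.6% with UV-B, and thus followed Asp-GTC-2-1 in its high value in UV-B library 1. Asp-GTC-3-1 was charged more in 6 of 6 libraries, the difference of Asp-GTC-2-1 minus Asp-GTC-3-1 being -36.8 to -4.73 percentage points, and the smallest of these gaps was in UV-B library 1. It held 3.7%, 13.6% and 3.1% of the reads of the isoacceptor in the untreated and 3.0%, 2.8% and 0.42% in the UV-B libraries. The gene was singled out after its values were seen.

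Among the genes of tRNA-Asn-GTT, Asn-GTT-2-1 was charged at 78.4% ± 2.77 and Asn-GTT-5-1 at 75.7% ± 1.91 in untreated NTERT cells, above Asn-GTT-4-1 at 54.0% ± 10.1 (SD, n = 3 each). Asn-GTT-3-1 was at 73.0% ± 6.33, Asn-GTT-9-1 at 65.4% ± 4.17 and Asn-GTT-1-1 at 63.0% ± 4.87 (SD, n = 3 each). Asn-GTT-3-1 was above Asn-GTT-4-1 in 6 of 6 libraries, and Asn-GTT-2-1 was above it in 5 of 6. After UV-B, Asn-GTT-3-1 was charged at 73.6%, 65.6% and 64.5%, Asn-GTT-2-1 at 68.4%, 75.9% and 74.2% and Asn-GTT-5-1 at 63.5%, 76.4% and 71.6%. The values of Asn-GTT-4-1 were 71.7%, 46.9% and 55.4%, those of Asn-GTT-1-1 68.7%, 64.6% and 62.7%, and those of Asn-GTT-9-1 83.3%, 54.2% and 50.5%, of which the first rested on 12 reads with an end. None of the 10 genes passed the test for UV-B, with differences between -0.44 for Asn-GTT-2-1 and 0.41 for Asp-GTC-1-1 and Asp-GTC-2-1, and 0 of 168 human genes (0%) did in limma, where 3 had an unadjusted p below 0.05.

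The other 11 human genes, all of tRNA-Asn-GTT, had 4048 reads in all over the 6 NTERT libraries and made up 3.83% to 15.8% of the reads of the isoacceptor. Of these reads 21.3% carried an end, and 23.5% of the reads with an end were charged. Both values were below those of the isoacceptor as a whole. Asn-GTT-26-1 had the most reads among them, with 1128 in untreated cells and 356 after UV-B, of which 174 and 64 carried an end, and 11 and 2 of these were charged.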

How the data were processed

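The authors ligated barcoded adapters to the tRNAs, trimmed and aligned the reads to tRNA genes, and deposited for each gene the number of all reads and of reads ending in CCA and in CC, as colon-separated lines without column names or normalization. The submitters' processing notes name Trim Galore, Bowtie2, GRCm38 (mm10) and GRCh38 (hg38). The deposited numbers are counts of reads. The second number was taken as the charged reads, since its share falls at tRNAPro with HF. Because the layout kept the unit from being checked automatically, no count model was fitted, and the limma test on log2 CPM planned for that case took its place for the read share.

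Reads were summed by anticodon. Reads on no tRNA gene (72.2% to 98.7% of a library) and yeast sequences were left out. Groups and replicate numbers followed the labels. Charging was tested as the log2 ratio of CCA to CC reads with 0.5 added to each, the read share as log2 CPM after TMM scaling (trims of 30% and 5%), and reads with an end as the log2 ratio to other reads, by limma 3.58.1 in R 4.3.3 within a cell type, for isoacceptors or genes with a mean of at least 50 reads, with Benjamini-Hochberg adjustment and a threshold of 0.05. In MEF cells limma gave all isoacceptors 1 common spread for charging and 1 for the read share. Differences within a library were tested with an exact two-sided sign-flip permutation test. The fits were tested on simulated data. Python 3.11.15 with numpy 2.4.6, pandas 2.3.3 and matplotlib 3.10.9 served for sums, tables and plots.

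Named were the 3 tRNAs, their genes with enough reads, Tyr-GTA, the tRNAs for lysine and proline, and the 2 nearest isoacceptors. The members, lists and tests were chosen with earlier results of these data known. Alternatives were another pseudocount, other minimum means, a replicate block, subtraction of each library's median, equal weights for genes, the test named in the study's methods, library totals, only reads with an end, and leaving out each library. The adapters held random bases, but no source used here describes their use to remove duplicate reads, so reads may not be independent molecules and intervals cover only the counting error.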

Additional observations from a re-analysis of the deposited data

How the results depend on the processing

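With the library median subtracted, the HF differences in charging turned to -0.29 for tRNA-Asn-GTT and -0.63 for tRNA-His-GTG, both also with a replicate block added, and to -1.03, -0.30, -0.32, -0.64 and -0.59 for Asn-GTT-2-1, Asn-GTT-3-1, Asp-GTC-4-1, His-GTG-2-1 and His-GTG-3-1. Under the same setting the differences in reads with an end were -0.063, 0.16 and -0.077 for asparagine, aspartate and histidine in MEF cells and -0.020 for tRNA-Asp-GTC in NTERT cells. The number of MEF isoacceptors called for charging went from 9 to 3 with the library median subtracted, with or without the block, and to 0 with the replicate block alone or with the test named in the study's methods. That of genes went from 20 to 5 and, with the block, to 0, and that for reads with an end from 38 to 0 with the median subtracted. For the MEF read share it went from 7 to 4 without a minimum mean, 1 with library totals and 3 with only reads that carry an end, and tRNA-Asp-GTC lost its call at 1.02, 0.87 and 0.95. The causes were not tested.

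Leaving out each library in turn gave 0 to 22 MEF isoacceptors for charging, 1 to 9 for the read share and 24 to 38 for reads with an end, 0 to 64 MEF genes, and 0 to 1 NTERT isoacceptors for the read share. The HF differences ranged from 1.10 to 2.59 for the charging of tRNA-Asp-GTC, from 0.52 to 1.19 for its read share, and for reads with an end from 0.74 to 1.24, 1.13 to 1.38 and 0.61 to 1.32 for asparagine, aspartate and histidine. UV-B differences that changed sign ranged from -0.23 to 0.60 for the charging of tRNA-Asp-GTC, -0.33 to 0.035 for the read share of tRNA-Asn-GTT and -0.32 to 0.15 for the reads with an end of tRNA-His-GTG. For single genes these were -0.11 to 0.91 for Asn-GTT-2-1 in MEF cells and, in NTERT cells, -0.026 to 0.27 for Asn-GTT-1-1, -0.17 to 0.58 for Asn-GTT-4-1, -0.78 to 0.24 for Asn-GTT-9-1, -0.087 to 0.76 for Asp-GTC-1-1, -0.13 to 0.72 for Asp-GTC-2-1 and -0.21 to 0.44 for Asp-GTC-3-1. The within-library differences ranged from 1.68 to 1.96 and 1.44 to 1.61 in MEF cells, for Asn-GTT minus Asp-GTC and Asn-GTT minus His-GTG, and from 2.21 to 2.37 and 1.26 to 1.67 in NTERT cells, for Asn-GTT and Asp-GTC minus His-GTG. With 5 libraries the sign-flip test cannot pass the threshold. Of the other settings, 119 of 140 values that answer a comparison and 60 of 65 values of single genes kept their direction and their side of the threshold. With 1 library left out, 125 of 192 and 93 of 108 such values did.

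In the labels, libraries of NT and treated cells are linked only by a number. The deviations of same-numbered libraries were correlated at -0.10, -0.11 and -0.03 for charging in MEF cells and at -0.35, 0.024 and -0.49 in NTERT cells. For the read share these were 0.16, 0.084 and -0.34 in MEF and -0.31, 0.59 and 0.53 in NTERT cells. With 3 libraries a group, these correlations cannot tell whether same-numbered libraries belong together. With the replicate block no call of the 3 tRNAs changed. The planned count models were not run. Depth limits the genes of tRNA-Asn-GTT with few reads and, among the 3 tRNAs, tRNA-His-GTG in UV-B library 1, with 1150 reads with an end and an interval of 5.34 percentage points.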
